A study of Mus musculus with 23 samples.

Results

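The glucocorticoid receptor gene Nr3c1 and 7 of its targets, Fkbp5, Tsc22d3, Zbtb16, Dusp1, Sgk1, Hsd11b1 and Cdkn1a, were followed through the lungs of 23 mouse offspring. The 8 genes were picked by symbol from the 35322 genes listed, with earlier results of these data known. All 8 passed the filter on low values, which kept 16795 genes with at least 0.5 RPM, reads scaled to the library's total, in at least 4 libraries.

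Glucocorticoids such as corticosterone enter the cell and bind a receptor that waits in the cytoplasm in a complex with heat shock chaperones. The occupied receptor moves to the nucleus, where it binds response elements in DNA and raises the transcription of genes that dampen inflammation, restrain growth and shift metabolism, while it holds down cytokine and chemokine genes. In the lung this pathway matures surfactant and alveoli before birth, and in asthma it is the target of inhaled steroids.

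The design crossed the exposure of the dam with allergic airway disease (AAD) in the offspring. Sham (7 libraries) and PM (7) offspring were Balb/c females of 13 weeks, born to dams given saline or PM2.5, fine particles of air pollution, into the nose from before mating until weaning. In place of the allergen aerosol they were given nebulised saline, which the labels call PBS. Sham-OVA (5) and PM-OVA (4) offspring of the same 2 kinds of dam were sensitised to ovalbumin (OVA) with alum and then challenged with an OVA aerosol. The paper's methods describe sensitisation for each offspring and name only the saline aerosol for controls. Whether the saline groups were also sensitised is therefore not clear. Lungs were taken the day after the last challenge, after lung function had been measured under anaesthesia with methacholine. The paper's methods give the right lower lobe and the labels give lung with the letters RML. The libraries are labelled as separate samples, without saying which came from littermates, so p-values measure the spread between these libraries only.

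Saline libraries held 13089691 to 17393579 reads on genes, and the OVA libraries 2298645 to 12355561. Of the OVA libraries 3 held fewer than 6000000 reads, namely replicate 3 of Sham-OVA and both replicate 3 and replicate 4 of PM-OVA. In the first of these 1 read was worth 0.311 RPM, against at most 0.0688 RPM in a saline library. Sham replicate 1, labelled female, listed Xist at 0.289 RPM and the Y-linked gene Eif2s3y at 54.0 RPM, whereas the other 22 libraries listed Xist at 174 RPM or more and Eif2s3y at 0. Many results are therefore given with and without these 4 libraries. Once the shallow libraries are left out, only replicates 1 and 2 of PM-OVA remain. Fits of PM-OVA against PM without them rest on these alone. Markers of the lung were present in every group: the summed level of 8 alveolar type 2 markers, the surfactant-making epithelial cells, was 14107 RPM or more in each library.

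OVA challenge went with lower levels of most of the 8 transcripts, and Nr3c1 and Zbtb16 stood furthest below their saline controls. In Sham-OVA against Sham 6 of 8 were called lower and 0 higher at an adjusted p under 0.05, where 47.5% of all genes tested were called lower and 20.6% higher. In PM-OVA against PM 7 of 8 were called lower and 0 higher, against 45.2% and 20.1% of all genes. With so many genes lower, the number of calls alone sets the 8 genes little apart. Their median log2 fold changes in these 2 comparisons were -1.52 and -1.46, beside medians of -0.48 and -0.43 over all genes tested. At an adjusted p under 0.000001 with an absolute log2 fold change above 1, limma called 0 of 8 in either comparison, and 2.53% and 0.0238% of all genes lower. DESeq2 on the recovered reads, the tool to which the study applied this rule, called 4 of 8 lower in the Sham comparison, namely Nr3c1, Tsc22d3, Zbtb16 and Sgk1 (15.1% of all genes), and 0 of 8 in the PM comparison (6.34%). By limma without the shallow Sham-OVA replicate 3 the same 4 were called lower (12.6% of all genes). All OVA libraries lay below all saline libraries for 5 members in the Sham comparison (35.0% of all genes) and for 4 in the PM comparison (28.6%).

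**Figure D1:**
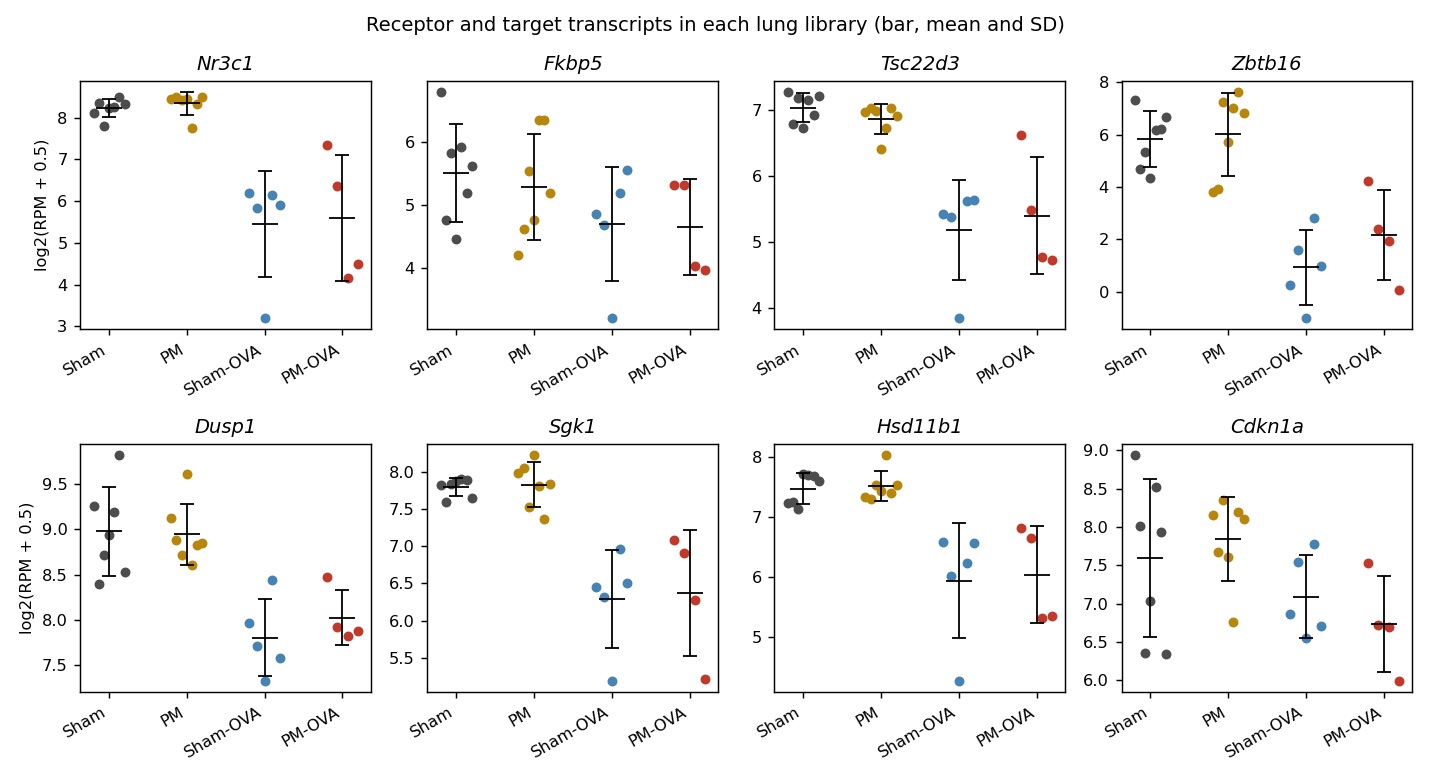
Each point is 1 library, in log2(RPM + 0.5), for the 8 genes in Sham, PM, Sham-OVA and PM-OVA, with the group mean and SD. Nr3c1, Sgk1 and Hsd11b1 separate the 9 OVA libraries from the 14 saline ones, while Fkbp5 and Cdkn1a overlap between all groups.

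**Figure D2:**
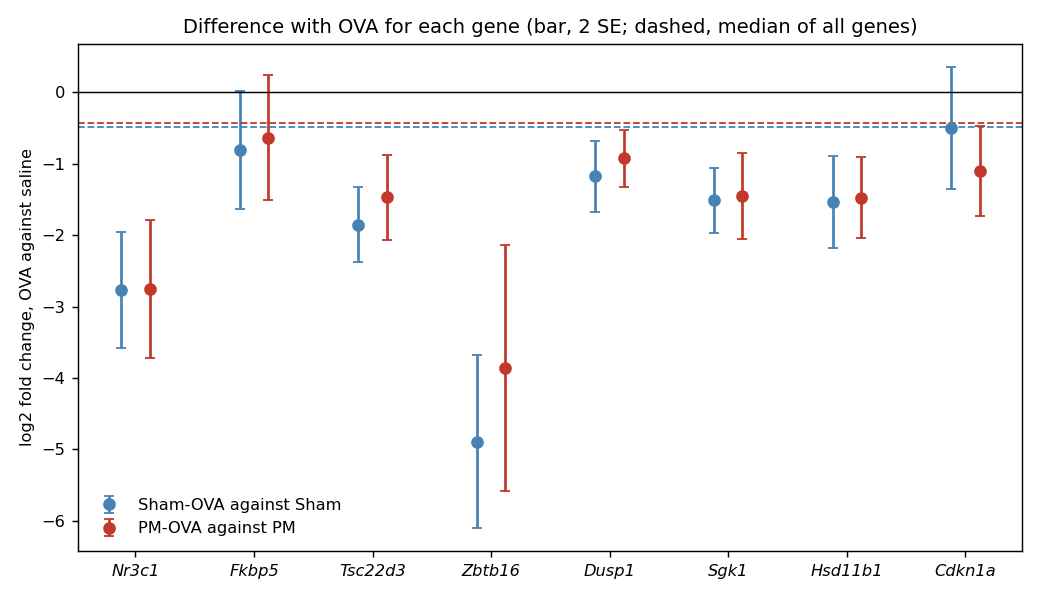
Log2 fold change of each gene with OVA in offspring of saline dams (blue) and PM2.5 dams (red), with bars of 2 SE. Dashed lines mark the medians of all 16795 genes, -0.48 and -0.43; the Zbtb16 points, -4.89 and -3.86, lie lowest.

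Nr3c1 encodes the receptor itself. It lay between 224 and 360 RPM in Sham (median 307) and between 215 and 360 RPM in PM (median 346). In Sham-OVA the 5 libraries held 73.0, 56.7, 8.70, 70.7 and 59.5 RPM. In PM-OVA the 4 libraries held 161, 81.2, 17.4 and 22.2 RPM. All 9 OVA libraries lay below the lowest saline library, and the 3 shallow libraries were the lowest of all. The mean fell from 303 ± 43.1 (SD, n = 7) to 53.7 ± 26.1 RPM (SD, n = 5) in offspring of saline dams, a log2 fold change of -2.77 (SE 0.41; limma, adjusted p = 3.46e-05). In offspring of PM2.5 dams the log2 fold change was -2.75 (SE 0.48; limma, adjusted p = 0.000432). Of all 16795 genes, 412 and 338 had a lower log2 fold change than Nr3c1 in these comparisons.

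Without the shallow libraries the Nr3c1 change was -2.21 after OVA in offspring of saline dams and -1.50 in those of PM2.5 dams (limma, adjusted p = 4.38e-10 and 0.000618). The size of the PM-OVA fall thus went from 6.75-fold to 2.82-fold, in a fit that held only replicates 1 and 2 of PM-OVA. Long transcripts were lower as a class with OVA: over 11578 genes, none of them a replicate, the log2 fold change correlated with the log10 of transcript length at r = -0.42 and -0.43. The exons of Nr3c1 cover 7684 bases, and with the trend in length and GC content removed its changes were -2.03 and -1.99 (limma, adjusted p = 0.000195 and 0.00143). In these bulk libraries, fewer cells of a type and less of the transcript per cell cannot be told apart. Nr3c1 lies at 39410545 to 39519421 on chromosome 18 (GRCm38, reverse strand) in the GENCODE annotation.

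Fkbp5 and Tsc22d3 are induced by the receptor and act on its pathway. Fkbp5 is a co-chaperone that binds the receptor complex and lowers its affinity for hormone. Its level varied widely between saline animals, from 21.5 to 110 RPM in Sham (median 48.4) and from 17.9 to 81.4 RPM in PM (median 36.1). The Sham-OVA libraries held 28.4, 25.2, 8.70, 36.2 and 46.5 RPM. The PM-OVA libraries held 39.2, 39.4, 15.8 and 15.1 RPM. All but 3 of the 9 OVA values lay within the range of the saline libraries, and neither difference passed the test. The log2 fold change was -0.81 (SE 0.41; limma, adjusted p = 0.0952) in offspring of saline dams. It was -0.63 (SE 0.44; limma, adjusted p = 0.221) in offspring of PM2.5 dams. The first of these passed at an adjusted p of 0.0460 or 0.0496 (limma) when Sham replicate 4 or Sham-OVA replicate 5 was left out, and the second was 0.03 without the shallow libraries.

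Tsc22d3 encodes the glucocorticoid-induced leucine zipper protein, which mediates part of the anti-inflammatory action of steroids. Its saline levels were narrow, from 106 to 154 RPM in Sham (median 141) and from 84.5 to 131 RPM in PM (median 125). The Sham-OVA libraries held 42.7, 41.2, 13.98, 48.8 and 49.2 RPM. PM-OVA libraries held 97.8, 44.4, 26.8 and 26.0 RPM, so that replicate 1 alone reached the saline range. The log2 fold changes were -1.85 (SE 0.26; limma, adjusted p = 2.48e-05) and -1.47 (SE 0.30; limma, adjusted p = 0.0011). Without the shallow libraries the latter was -0.82 (limma, adjusted p = 0.0168), a fall of 1.76-fold in place of 2.77-fold.

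Zbtb16, a zinc finger transcription factor that steroids induce strongly in many tissues, was nearly lost after OVA challenge. It spanned 19.8 to 158 RPM in Sham (median 71.5) and 13.4 to 195 RPM in PM (median 112). Sham-OVA libraries held 0.695, 2.48, 0, 6.61 and 1.46 RPM, which are 10, 33, 0, 83 and 20 reads. Replicate 3 with 0 reads allows a level of up to 0.932 RPM (3 reads, counting error only). PM-OVA libraries held 18.4, 4.71, 3.32 and 0.545 RPM, which are 274, 61, 25 and 3 reads. All 5 Sham-OVA libraries lay below the Sham range, and PM-OVA replicate 1 lay above the lowest PM library. The log2 fold change was -4.89 (SE 0.60; limma, adjusted p = 7.29e-06), with 17 of 16795 genes lower. In offspring of PM2.5 dams it was -3.86 (SE 0.86; limma, adjusted p = 0.00191), with 60 genes lower. Adding 0.5 RPM before the logarithm makes the log2 fold change of so low a gene smaller in size. Other choices moved it both ways. Over the fits that keep all libraries it ran from -5.585 to -3.908 in offspring of saline dams. In those of PM2.5 dams it ran from -4.305 to -3.02.

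How far Zbtb16 fell with PM-OVA depended on single libraries. The log2 fold change was -4.56 without PM-OVA replicate 1 and -3.17 without replicate 4. With both shallow libraries left out it was -2.71 (limma, adjusted p = 0.0379), or 6.52-fold in place of 14.5-fold. In Sham-OVA offspring it was -4.41 without the shallow library and -4.64 without Sham replicate 1.

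Dusp1 and Sgk1 respond both to steroids and to kinase signals. Dusp1 is a phosphatase that switches off MAP kinases, and Sgk1 is a kinase that keeps the epithelial sodium channel at the cell surface. To show what their start sites hold, the 250 bases before a RefSeq start of each are printed 5′ to 3′ (GRCm38), with a match in capitals. In Sgk1 the capitals mark GNACANNNTGTNC, the paired receptor motif with 3 free bases between its arms, at chr10:21993640-21993889 on the forward strand. In Dusp1 they mark TGACGTCA, the cAMP response element, at chr17:26508473-26508722 on the reverse strand.
Sgk1: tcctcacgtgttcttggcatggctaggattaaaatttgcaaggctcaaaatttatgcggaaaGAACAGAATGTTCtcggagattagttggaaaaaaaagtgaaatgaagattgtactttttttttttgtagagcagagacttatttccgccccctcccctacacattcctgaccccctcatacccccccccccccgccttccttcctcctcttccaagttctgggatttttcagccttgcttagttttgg
Dusp1: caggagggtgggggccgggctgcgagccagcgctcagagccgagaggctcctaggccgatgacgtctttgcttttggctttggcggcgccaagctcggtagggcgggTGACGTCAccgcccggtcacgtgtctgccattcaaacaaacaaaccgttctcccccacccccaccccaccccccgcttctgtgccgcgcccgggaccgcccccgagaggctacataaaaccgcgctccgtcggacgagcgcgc

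Promoter windows of 300 bases (250 before and 50 after a start) were listed for 6 of the 8 genes, 14 windows in all. Nr3c1 and Zbtb16 had none. The paired motif, which reads the same in both directions, was found in 1 of 14 windows, the Sgk1 window printed, and in 0.475% of the 32851 windows of all genes. It starts 188 bases before that start and overlaps 2 half-sites there. The half-site AGAACA, or TGTTCT on the other strand, was found in 4 of 14 windows, 3 of Sgk1 and 1 of Tsc22d3, and in 19.0% of all windows. TGACGTCA was found in 1 of 14 windows, that of Dusp1, and in 1.79% of all. A match is only a run of letters, and response elements of this receptor often lie far from the start.

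Dusp1 was the most abundant of the 8, also per kilobase of exon (161 RPM per kilobase in Sham). It lay between 337 and 906 RPM in Sham (median 491) and between 389 and 782 RPM in PM (median 461). Sham-OVA libraries held 249, 209, 160, 348 and 190 RPM, of which 4 lay below the lowest Sham library. PM-OVA libraries held 355, 242, 225 and 235 RPM, all below the lowest PM library. The log2 fold changes were -1.18 (SE 0.25; limma, adjusted p = 0.000707) and -0.92 (SE 0.20; limma, adjusted p = 0.00156). With the length and GC trend removed they were -1.67 and -1.42. Dusp1 shares 11 exon bases with Ergic1 on the other strand, and whether counting used strand is not given in the sources used here.

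Sgk1 was among the steadiest of the 8 in saline lungs, from 193 to 239 RPM in Sham (median 229) and from 165 to 299 RPM in PM (median 228). Sham-OVA libraries held 87.2, 79.0, 36.0, 124 and 90.5 RPM. PM-OVA libraries held 136, 120, 77.0 and 36.7 RPM. No OVA library reached the saline range. The log2 fold changes were -1.51 (SE 0.23; limma, adjusted p = 4.27e-05) and -1.46 (SE 0.30; limma, adjusted p = 0.00121), and the latter was -0.83 without the shallow libraries (1.78-fold in place of 2.74-fold).

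Hsd11b1 is the enzyme of the endoplasmic reticulum that regenerates active corticosterone from its inert keto form, and so sets the hormone that reaches the receptor inside the cell. It lay between 141 and 210 RPM in Sham (median 193) and between 157 and 261 RPM in PM (median 173). Sham-OVA libraries held 95.7, 64.8, 19.0, 74.8 and 94.5 RPM. PM-OVA libraries held 112, 100.4, 39.7 and 40.7 RPM. Every OVA library lay below every saline library. The log2 fold changes were -1.53 (SE 0.32; limma, adjusted p = 0.000689) and -1.47 (SE 0.28; limma, adjusted p = 0.000737), and the latter was -0.78 without the shallow libraries (1.72-fold in place of 2.78-fold).

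Cdkn1a encodes p21, an inhibitor of cyclin-dependent kinases that p53 and steroids both induce. It ranged from 80.5 to 491 RPM in Sham (median 244), where the highest value is that of replicate 1, and from 109 to 326 RPM in PM (median 276). Sham-OVA libraries ranged from 93.2 to 219 RPM (median 117), inside the Sham range. PM-OVA libraries ranged from 63.4 to 185 RPM (median 104), and 3 of 4 lay below the lowest PM library. The log2 fold change was -0.50 (SE 0.43; limma, adjusted p = 0.311) in offspring of saline dams, and -1.09 with an adjusted p of 0.0460 (limma) when the length and GC trend was removed. In offspring of PM2.5 dams it was -1.10 (SE 0.32; limma, adjusted p = 0.00863), and -0.71 with an adjusted p of 0.120 (limma) without the shallow libraries. Of the exon bases of Cdkn1a, 273 are shared with AC167363.2, a transcript of the class TEC in the annotation, on the other strand.

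The scale of the values bears on these differences. Under median-of-ratios scaling the median of all genes was -0.17 for the Sham pair of groups and -0.13 for the PM pair, with 4903 genes higher and 6407 lower in the first, in place of 3453 and 7978, and 4862 and 6003 in the second, in place of 3379 and 7589. The same number of members, 6 and 7 of 8, was called lower under that scaling, under quantile normalisation, and with edgeR and DESeq2 on the recovered reads. Nr3c1 was then -2.41 and -2.39 under median-of-ratios scaling, and Dusp1, the least changed of the called genes there, -0.81 and -0.56. Without the shallow libraries 6 of 8 members and 5258 of all 16795 genes were called lower in PM-OVA against PM.

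Maternal PM2.5 exposure was compared next, in saline and in OVA-challenged offspring. In PM against Sham 0 of 8 genes and 0% of all genes tested were called at an adjusted p under 0.05. By limma 731 genes had an unadjusted p under 0.05, none of them among the 8, and DESeq2 and edgeR each called 0 genes. Receptor level differed by a log2 fold change of 0.11, with an interval of 2 SE from -0.13 to 0.36. For Zbtb16 the interval was far wider, from -1.06 to 1.45, because of its spread between animals. The ranges of Sham and PM overlapped for all 8.

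In PM-OVA against Sham-OVA 0 of 8 genes and 0% of all genes were called. By limma 313 genes had an unadjusted p under 0.05, none of them among the 8, and DESeq2 called 1 gene and edgeR 0. Zbtb16 had the largest difference, a log2 fold change of 1.23 with an interval of 2 SE from -0.60 to 3.05. Nr3c1 differed by 0.13, with an interval from -1.46 to 1.72, so that a difference of more than 2-fold in either direction lies inside it. The order of the group means was PM, Sham, PM-OVA, Sham-OVA for Nr3c1, Zbtb16, Sgk1 and Hsd11b1, and neighbours in it were separated by range only between Sham and PM-OVA.

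The interaction asks whether the response to OVA differed with the dam's exposure, and 0 of 8 genes and 0% of all genes were called. By limma 854 genes had an unadjusted p under 0.05, none of them among the 8, and DESeq2 called 2 genes and edgeR 0. The interaction term of Nr3c1 was 0.02 on the log2 scale, with an interval of 2 SE from -1.32 to 1.35. That of Cdkn1a, the most negative, was -0.60 with an interval from -1.76 to 0.57. Weights for single libraries moved these terms: that of Nr3c1 became -1.56 (limma with array weights, adjusted p = 0.00175) while the median over all genes became -0.32, with 651 genes called positive and 3965 negative. The terms of the 8 genes thus depend on whether libraries are weighted.

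Saline animals differed from one another in 3 of the targets far more than in the receptor. Over the 14 saline libraries the SD of log2(RPM + 0.5) around the Sham and PM means was 1.35 for Zbtb16. Of 11715 genes of at least 5 RPM on average over all 23 libraries, 10 had a larger one. It was 0.83 for Cdkn1a (47 genes larger) and 0.81 for Fkbp5 (51 genes larger). The median gene had an SD of 0.20. Nr3c1, Tsc22d3, Sgk1 and Hsd11b1 were close to it, from 0.22 to 0.25, and Dusp1 was at 0.42. Sham replicate 1 held the highest saline value of Fkbp5 (110 RPM) and of Cdkn1a (491 RPM). It also held the highest Sham value of Zbtb16 (158 RPM). The SDs include this library and were not computed without it.

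**Figure D3:**
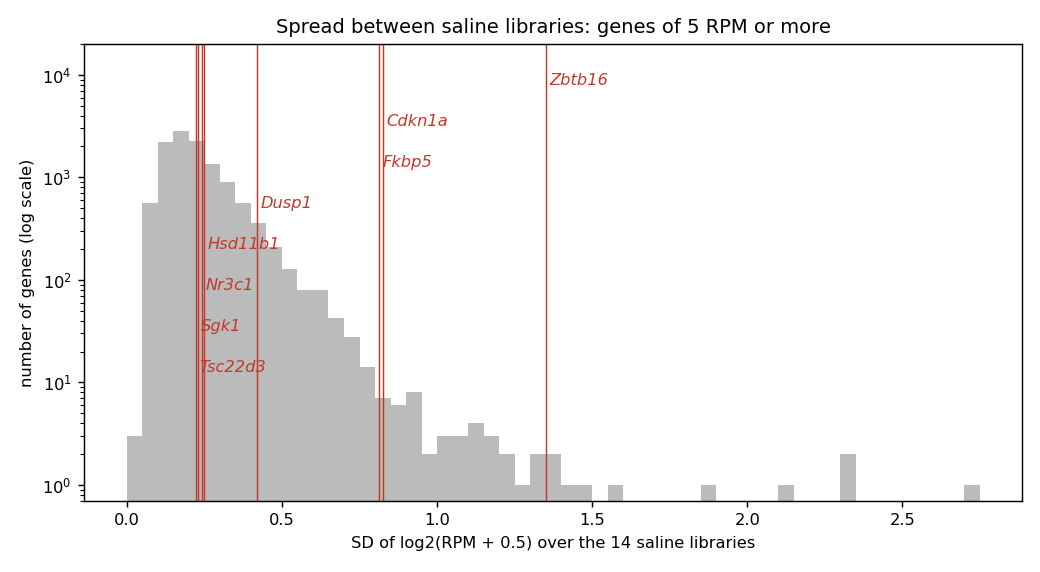
The grey bars count genes (log scale) by their SD of log2(RPM + 0.5) over all 14 saline libraries, for the 11715 genes of at least 5 RPM on average. Red lines mark the 8 genes by a slightly different SD, that around the separate Sham and PM means. Zbtb16 at 1.35, and Cdkn1a and Fkbp5 near 0.8, stand right of nearly all genes. Of the 8, 4 lie near 0.20, the median over genes of the SD around the group means.

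Zbtb16 and Fkbp5 rose and fell together from animal to animal in the saline lungs. Of 28 pairs of the 8 genes, this was the 1 that passed: Pearson r was 0.83 (permutation p = 0.00031, adjusted over the 28 pairs 0.00868, n = 14). Spearman's rho was 0.83 (permutation p = 0.00035, adjusted 0.0098). Without the 2 libraries farthest from the Fkbp5 median r was 0.77, without Sham replicate 1 it was 0.82, and within Sham and within PM it was 0.85 and 0.87. Of 11714 other genes, 5 followed Fkbp5 more closely than Zbtb16 did, and 3 followed Zbtb16 more closely than Fkbp5 did. The library with most Fkbp5 (110 RPM, Sham replicate 1) held 158 RPM of Zbtb16, and that with least (17.9 RPM, PM replicate 1) held 13.4 RPM.

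No pair with the receptor transcript passed in saline lungs. Nr3c1 had an r of -0.57 with Fkbp5 (permutation p = 0.0345, adjusted 0.322, n = 14) and -0.18 with Zbtb16 (permutation p = 0.538, adjusted 0.857, n = 14). Fkbp5 and Tsc22d3 had an r of 0.49 (permutation p = 0.0725, adjusted 0.357, n = 14), which was 0.93 within Sham and 0.08 within PM. Dusp1 and Sgk1 had an r of 0.59 (permutation p = 0.0267, adjusted 0.322, n = 14). Over the 9 OVA libraries all 28 pairs had an r above 0, with a median of 0.74. These libraries differ in depth, with the 3 shallow ones low for most of the 8, and over the 6 deeper ones the median was 0.59, with 26 pairs above 0.

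The genes most like each member over the 14 saline libraries are given as a description. Fkbp5 was followed most closely by Map3k6 (r = 0.89), Foxo3 (0.88) and Spsb1 (0.85). Tsc22d3 was followed by Klf15 (0.89), a transcription factor that steroids induce, Ybx1 (0.89) and Arrdc2 (0.87). For Zbtb16 the nearest were Zhx3 (0.85), Peli2 (0.85) and Crispld2 (0.85). Dusp1 had Spry4 (0.85), Ppp1r15a (0.81) and Btg2 (0.79) as nearest, and Sgk1 had Edn1 (0.88), which encodes the vasoconstrictor endothelin, Ctla4 (0.84) and Tasp1 (0.75). Ctla4 lay between 1.28 and 4.88 RPM in the saline libraries, under the 5 RPM that its mean over all 23 libraries reached. Nr3c1 was followed by Vezf1 (0.94), 2610002M06Rik (0.94) and Nfic (0.93), Hsd11b1 by Gpx3 (0.85), Ppp1r1b (0.83) and Tbc1d1 (0.83), and Cdkn1a by Sh3pxd2a (0.93), Cdc42bpb (0.92) and Fam160a1 (0.92). All share depth and library with the member they follow.

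Cdkn1a varied with several circadian clock genes across the saline animals. Of 96 pairs of the 8 genes with 12 clock and clock-output genes, a family added after the data were seen, 8 passed by Pearson's r, and all 8 were pairs of Cdkn1a. By Spearman's rho 1 passed, that with Bhlhe41, and the other 7 of these pairs had adjusted permutation p-values of 0.175 to 0.239. Bhlhe41, a repressor of the clock, ran from 9.12 to 60.9 RPM over these libraries and was lowest where Cdkn1a was highest. The r of Cdkn1a with Bhlhe41 was -0.93 (permutation p = 1e-05, the smallest 100000 permutations can give, adjusted over the 96 pairs 0.00096, n = 14), and rho was -0.83 (permutation p = 0.00042, adjusted 0.0403). With Arntl, an activator that ran from 1.79 to 25.5 RPM, r was 0.89 (permutation p = 0.0001, adjusted 0.0048, n = 14) and rho 0.72 (permutation p = 0.00501, adjusted 0.175). Sham replicates 3 and 7, with 81.3 and 80.5 RPM of Cdkn1a, held 338.8 and 338.4 RPM of the clock-output gene Dbp, and Sham replicate 1, with 491 RPM of Cdkn1a, held 18.0. Without the 2 libraries farthest from the Cdkn1a median, r was -0.84 with Bhlhe41, 0.76 with Arntl and -0.66 with Dbp, and it came down to -0.47 with both Tef and Nr1d2, the lowest of the 8. Within Sham r with Bhlhe41 was -0.98, and within PM -0.76. Over the 9 OVA libraries the sign was opposite for Bhlhe41 (r = 0.42), Nr1d2 (0.22), Hlf (0.10) and Per3 (0.083). There the sign was kept for Arntl (0.67), Npas2 (0.70), Dbp (-0.63) and Tef (-0.68). Genes outside this list followed Cdkn1a as closely, such as Sh3pxd2a (r = 0.93). The median r of Cdkn1a was -0.73 with the 12 genes and -0.04 with all genes compared. How many of all genes reach such an r was not counted. Dbp, Hlf, Tef and Per3 were all highest in Sham replicates 3 and 7, so the 8 pairs are not separate results. The time of day of tissue collection is not given in the labels, and its part in the pairs of Cdkn1a was not tested.

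**Figure D4:**
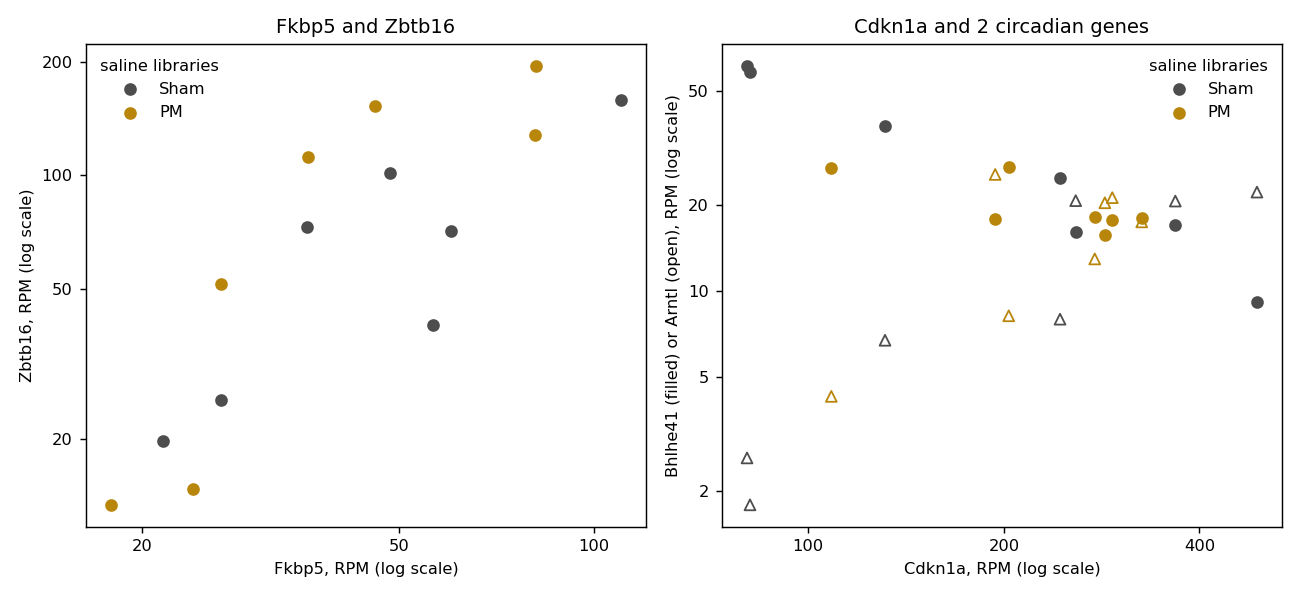
Each point is 1 saline library, with all axes in RPM on a log scale. Left, Zbtb16 rises with Fkbp5 (r = 0.83); right, over Cdkn1a, Bhlhe41 (filled) falls (r = -0.93) and Arntl (open) rises (r = 0.89).

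The rest of the pathway was described from lists, by the genes called in both OVA comparisons in one direction, beside 2898 higher and 6855 lower of all 16795 genes. Of 20 genes of the receptor complex and its cofactors, Nr3c1 and Fkbp5 among them, 4 rose and 10 fell. Of the 18 that are not members 4 rose and 9 fell. The risers included the chaperone partners Stub1 (104 ± 25.7 RPM in Sham, 375 ± 192 in Sham-OVA; log2 fold changes 1.76 and 1.68), Ptges3 (1.57 and 1.51) and Hsp90ab1 (1.19 and 0.88). Ncor1, a corepressor, fell most, by a log2 fold change of -3.96 and -3.61. Nr3c2, the mineralocorticoid receptor and the closest relative of Nr3c1, changed by -2.77 and -2.01, and the coactivator Ep300 by -2.06 and -2.13. Without the shallow libraries 3 rose and 7 fell. Hsp90ab1 was then called in only 1 comparison, as it was with the length and GC trend removed. Without the shallow libraries the smaller fall was -2.53 for Ncor1, -1.24 for Nr3c2 and -1.52 for Ep300. The smaller rise was 0.95 for Stub1 and 0.99 for Ptges3.

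Of 10 tested genes of steroid metabolism and transport 1 rose and 4 fell. The rises were 3 under median-of-ratios scaling, quantile normalisation, edgeR, DESeq2 and without the shallow libraries, and 0 with the replicate block. H6pd, which supplies the cofactor that Hsd11b1 needs, changed by -1.80 and -1.78, and the steroid exporter Abcb1a by -1.63 and -1.94. Abcc1, another transporter, changed by -1.36 and -1.14, and the reductase Srd5a3 by 0.49 and 0.37. With the length and GC trend removed Srd5a3 was called in neither comparison, at 0.0031 in one and 0.10 in the other. Without the shallow libraries the smaller fall was -0.96 for H6pd, -1.15 for Abcb1a and -0.43 for Abcc1. For Srd5a3 the smaller rise was 0.32. Hsd11b1 is itself in this list, and is 1 of the 4 that fell.

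Of 32 other genes that steroids induce, 6 rose and 17 fell, with a median log2 fold change of -0.73 and -0.67. Klf15 changed by -3.08 and -2.46, Mertk, which clears dying cells, by -2.11 and -2.23, and Pik3r1 by -1.97 and -2.27. The metal-binding metallothioneins Mt1 (3.27 and 3.15) and Mt2 (2.89 and 2.74) and the iron-binding protein Lcn2 (3.01 and 2.57) rose. Induced targets thus moved in both directions, and under median-of-ratios scaling 10 rose and 14 fell. Without the shallow libraries the named genes were still called in both comparisons. The smaller fall was then -1.43 for Klf15, -1.12 for Mertk and -1.09 for Pik3r1. The smaller rise was 2.33 for Mt1, 2.29 for Mt2 and 2.35 for Lcn2.

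Of the inflammatory genes that steroids hold down, 6 of 17 tested rose and 2 fell. The eosinophil chemokine Ccl11 went from 2.33 ± 0.75 RPM in Sham to 86.7 ± 19.1 in Sham-OVA (log2 fold changes 4.98 and 4.94), and Ccl2 changed by 3.28 and 2.05. Il13, the type 2 cytokine that drives mucus, was listed at 0 in all Sham libraries and at 1.82 ± 1.78 RPM (SD, n = 5) in Sham-OVA. Its fitted fold change rests on the 0.5 RPM added and is not given. It was called higher in both comparisons by limma, edgeR and DESeq2, and in neither with the length and GC trend removed. Il1a (-2.33 and -2.33) and the adhesion molecule Icam1 (-1.25 and -1.20) fell. For the list, 3 rose and 3 fell with that trend removed, and 3 rose and 2 fell with array weights or with the replicate block. Without the shallow libraries 5 rose and 1 fell, and Il1a was called in only 1 comparison.

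**Figure D5:**
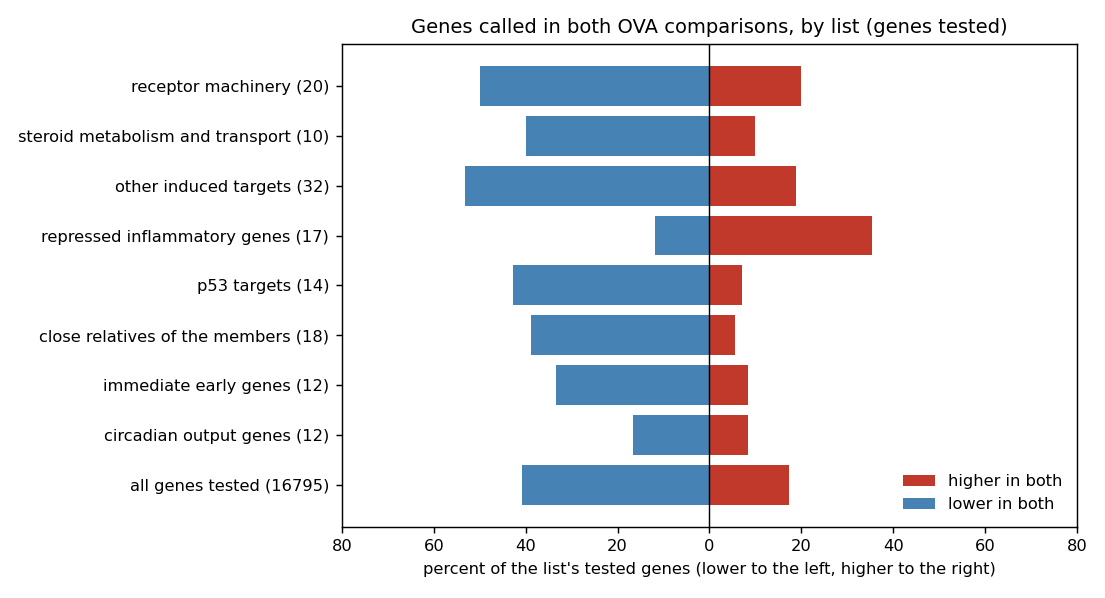
Percent of the tested genes of each list called higher (red, right) or lower (blue, left) in both OVA comparisons, with the number of genes tested in brackets. The inflammatory list has 6 of 17 higher and 2 lower; other induced targets have 6 higher and 17 lower of 32, and all genes 2898 and 6855 of 16795.

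The p53 targets and the relatives of the members were called lower at shares near that of all genes. Of 14 p53 targets 1 rose, Bax (0.71 and 0.81), and 6 fell, among them Aen (-2.12 and -2.06), Ccng1 (-1.75 and -2.08) and Eda2r (-0.99 and -1.39). Under median-of-ratios scaling, quantile normalisation and edgeR 1 p53 target rose and 3 fell, and with DESeq2 1 rose and 2 fell. Without the shallow libraries or with the replicate block 1 rose and 3 fell. With the length and GC trend removed 0 rose and 6 fell, and with array weights 1 rose and 8 fell. Eda2r was called in neither comparison with edgeR, DESeq2 or the length and GC trend removed. It was called in only 1 under median-of-ratios scaling, quantile normalisation, the replicate block or without the shallow libraries. The direction of Bax turned, to -0.39 and -0.34, when the length and GC trend was removed. Of 18 tested relatives of the members 1 rose, Tsc22d4 (0.58 and 0.47), and 7 fell, with Dusp16 (-2.27 and -2.25) and Tsc22d2 (-2.01 and -2.17) next to Nr3c2. Of these relatives 4 rose and 7 fell under median-of-ratios scaling, and 5 rose and 7 fell with edgeR, DESeq2 or quantile normalisation. With the replicate block 0 rose and 7 fell. Tsc22d4 was called in neither comparison with the length and GC trend removed, at 0.20 in one and 0.38 in the other. Of 12 immediate early genes Junb rose (1.40 and 1.28) and Fos (-1.65 and -1.79), Jun (-1.60 and -1.59) and Fosb (-1.23 and -1.62) were among 4 that fell. Without the shallow libraries 1 of the 12 rose and 1 fell. Junb, Fos and Fosb were then each called in only 1 comparison, and Jun in both. Of 12 circadian genes Bhlhe41 rose (1.22 and 1.25), and Nr1d2 (-2.56 and -1.15) and Nr1d1 (-0.96 and -0.55) fell. Fosb and Nr1d1 were called in neither comparison with edgeR. Nr1d2 was called in only 1 without the shallow libraries, with the length and GC trend removed, or with the replicate block. Nr1d1 was called in only 1 under median-of-ratios scaling, quantile normalisation, DESeq2 or the replicate block. In PM against Sham, PM-OVA against Sham-OVA and the interaction 0 genes of any list were called.

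Cell type markers moved with the OVA groups, and their part in the levels of the 8 genes was not tested. Of 8 macrophage markers 6 rose and 1 fell in both comparisons, and their summed level went from 150 to 416 RPM in the saline libraries to 1494 to 2547 RPM in the OVA libraries. Of 6 tested eosinophil markers 5 rose and 1 fell, with a summed level of 4.27 to 22.3 RPM in saline and 27.96 to 106 RPM in OVA libraries; Epx, Ear6 and Prg3 were at 0 in all saline libraries. Of 8 fibroblast markers 0 rose and 4 fell, from 5256 to 10891 RPM down to 1767 to 6391 RPM. Of 8 endothelial markers 2 rose and 4 fell, of 8 smooth muscle markers 3 rose and 3 fell, of 8 T cell markers 2 rose and 1 fell, of 8 alveolar type 2 markers 2 rose and 3 fell, and of 7 tested adipocyte markers 0 rose and 2 fell. These counts varied with the processing. Of the T cell markers 5 rose and 0 fell under median-of-ratios scaling, quantile normalisation, edgeR, DESeq2 and without the shallow libraries. Without those libraries 0 endothelial markers rose and 2 fell, and 0 smooth muscle markers rose and 1 fell. Alveolar type 2 markers that rose numbered 0 under quantile normalisation and 4 with edgeR or DESeq2.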

How the data were processed

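RNA-Seq of lung from 23 offspring was analysed. Per the labels and methods, the authors sequenced single-end reads of stranded polyA libraries, trimmed them with Trimmomatic, aligned them to GRCm38 (mm10) with Bowtie2, which does not split reads over introns, and quantified them in SeqMonk. The single deposited table is named after RPKM but holds RPM, in which Ptp4a1 is listed 2 times. Because 100% of the values below 1000 reads were whole multiples of 1 read, within 0.01 reads and whatever the gene's length, reads were recovered from them. Whether introns or strand entered the counts is not given in the sources used here.

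Genes were tested as log2(RPM + 0.5) by limma (version 3.58.1, R 4.3.3) using a variance trend and Benjamini-Hochberg adjustment over all genes tested. The 2 groups compared entered each fit, and all 4 the interaction. Genes were called at an adjusted p under 0.05. The 8 genes, the lists and the tests were chosen with earlier results of these data known. From each list at most 3 rises and 3 falls called in both OVA comparisons were named, with any gene called elsewhere, and the 3 genes of at least 5 RPM on average over the 23 libraries closest to each member. Correlations over the 14 saline libraries used 100000 permutations, two-sided. Transcript length and GC content came from GENCODE and were known for 98.5% of genes tested; promoters came from RefSeq (GRCm38.p6). Length and GC removal, fits without the OVA libraries under 6000000 reads, the block by library name and the clock gene pairs were chosen after seeing the data. The other alternatives were pseudocounts, filters, scalings, array weights, robust estimation, 1 fit of all groups, replicate blocks, leaving out each library, and count tests on those reads with edgeR 4.0.16 and DESeq2 1.42.0. The fits were tested on simulated data. Intervals of 2 SE reflect the spread between libraries, and floors of 3 reads cover counting error only. Figures were drawn with matplotlib 3.10.9.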

Additional observations from a re-analysis of the deposited data

Results flagged for a closer look

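Of 32 groups of 4 to 7 values (8 genes in 4 groups), 6 held a library set far apart from the others by Dixon's ratio, where chance flags about 1 in 20. Nr3c1 was at 8.70 RPM in Sham-OVA replicate 3, where the other 4 libraries ran from 56.7 to 73.0 RPM, and Tsc22d3 was at 13.98 RPM in the same library, where the others ran from 41.2 to 49.2 RPM. That library is the shallowest, with 2298645 reads. PM replicate 5 was low for Nr3c1, at 215 RPM beside 322 to 360 RPM in the other 6, and high for Hsd11b1, at 261 RPM beside 157 to 186 RPM. Dusp1 was at 782 RPM in PM replicate 4, where the others ran from 389 to 559 RPM. Dusp1 was at 355 RPM in PM-OVA replicate 1, where the other 3 ran from 225 to 242 RPM.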

How the results depend on the processing

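Under the alternatives tried, the number of members called stayed within 1.5 times the reported one in all comparisons, except that array weights called 1 member, Nr3c1, in the interaction, and a block by library name called 4 in PM-OVA against PM. Of all 16795 genes, those weights called 651 positive and 3965 negative in the interaction. That block called 2177 genes lower in PM-OVA against PM. By the stricter rule with array weights, 5 members were called lower in Sham-OVA against Sham (17.7% of all genes). In PM-OVA against PM it was 2 members (12.1% of all genes). Leaving out single libraries gave 6 to 7 called members in Sham-OVA against Sham, 7 in PM-OVA against PM and 0 in the other comparisons. An uncalled difference is said here to turn only where it moved by more than its standard error. With array weights the interaction terms turned to -1.56 for Nr3c1, -0.61 for Fkbp5, -0.52 for Tsc22d3, -0.36 for Zbtb16, -0.20 for Dusp1, -0.62 for Sgk1 and -0.71 for Hsd11b1. In PM-OVA against Sham-OVA they turned to -0.83 for Nr3c1, -0.36 for Tsc22d3, -0.093 for Dusp1 and -0.43 for Hsd11b1. Fkbp5 in PM-OVA against PM turned to 0.029 without the shallow libraries, an alternative chosen after seeing the data. The cause was not tested. Of 28 pairs of members, 15 passed over the 9 OVA libraries and 1 over the saline ones, as also without Sham replicate 1 or with values centred on group means. Depth limits low values most in Sham-OVA replicate 3 (0.311 RPM per read).

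Libraries that share the replicate number of their titles did not deviate together throughout: the correlation of their deviations was over 0.1 in 1 of 5 pairs for Sham-OVA against Sham, 0 of 4 for PM-OVA against PM, 1 of 7 for PM against Sham and 3 of 4 for PM-OVA against Sham-OVA, and 5 of 20 correlated best with their own number. The replicate block changed no call of a member: 6 and 7 were called lower in the OVA comparisons and 0 elsewhere, with -2.70 and -2.87 for Nr3c1. Of all 16795 genes it called 7117 and 5694 lower in the OVA comparisons, in place of 7978 and 7589. The library names carry other numbers for most OVA libraries, and 1 PM-OVA library has none in common with PM. By these the deviations correlated over 0.1 in 0 of 5, 1 of 3, 1 of 7 and 1 of 3 pairs. Blocking on them, a choice made after seeing the data, called 7 members lower in Sham-OVA against Sham, with Fkbp5 added, 4 in PM-OVA against PM, where Tsc22d3, Dusp1 and Cdkn1a lost their calls, and 0 elsewhere.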

Other observations

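Levels per kilobase of exon allow the 8 genes to be set beside each other. The authors' RPM divided by exon length ordered them in Sham as Dusp1 (161 RPM per kilobase), Cdkn1a (66.5), Sgk1 (45.4), Hsd11b1 (42.3), Nr3c1 (39.4), Tsc22d3 (30.4), Zbtb16 (13.2) and Fkbp5 (5.42). In Sham-OVA the receptor stood at 6.99 RPM per kilobase, below Tsc22d3 at 9.02, and Zbtb16 at 0.426, below Fkbp5 at 3.06. These are means over libraries on 1 scale, with all annotated exons of a gene counted once, and no test was made between genes. Such exons cover 9468 bases for Fkbp5 and 4251 for Hsd11b1, while their longest transcripts have 3858 and 1978. The order can therefore depend on the length used.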
